A study of Mus musculus with 21 samples.

Results

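The genes described here are those of glycolysis, lactate transport and the transcriptional response to low oxygen. Of 36 genes listed for these roles, 32 could be read from a probe set assigned to a single gene symbol, out of 22180 genes read in that way in all. A gene with several such probe sets was read from the brightest one, averaged over all 21 arrays. Gpi1 and Eno1 had no single-symbol probe set and were not analysed here, and the probe sets of Aldoa and Ankrd37 carried several symbols. The genes were listed by function, and the list does not depend on a threshold in these data.

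Glycolysis splits glucose into pyruvate and yields ATP without oxygen. Tumour cells often run it at a high rate and export the resulting lactate through monocarboxylate transporters. When oxygen is low, the prolyl hydroxylases that mark the HIF alpha subunits for destruction lose activity, and the stabilised subunits pair with ARNT on promoters that hold the core letters ACGTG or GCGTG. Many glycolytic enzymes, the carbonic anhydrase Car9, the hydroxylase Egln3 and the mitophagy receptor Bnip3 are known targets. Breast carcinomas commonly contain poorly perfused regions in which these genes are read as hypoxia markers.

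RNA came from 2 mouse mammary carcinoma lines, Py8119 and Py117, each described by the submitters as a clone from transgenic MMTV-PyMT mice, in which a viral oncogene is driven by a mammary tumour virus promoter. The series names Py117 tumours radiation-sensitive and Py8119 tumours resistant, and asks how the lines behave within one tumour. There were 5 mixed tumours grown from both lines implanted 1:1, 5 Py8119 tumours, 5 Py117 tumours, 3 Py8119 cultures and 3 Py117 cultures. Each tumour was grown from 1000000 cells placed in mammary fat pad 4 in a matrix gel. The cultures grew in Ham's F12K medium with 5% serum. No cell or tumour was treated, and tumours were taken on the day on which irradiation would have been given. Labels name the samples biological replicates but give no strain, age or sex of the hosts.

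All values are log2 signals from a whole-transcript array, and array medians lay between 5.24 and 5.53. As a guide to background, the median signal of olfactory and vomeronasal receptor genes was 3.27, and their 95th percentile was 5.31. Among the 32 members only Slc2a3 and Adm had a group mean under that percentile. A difference is the mean of the first group named minus the mean of the second, with limma's standard error, and was called at an adjusted p under 0.05 over 22180 genes. The labels of both lines were set against epithelial markers. Epcam averaged 5.07 in Py8119 cultures and 10.58 in Py117 cultures, and Cdh1 averaged 5.53 in Py8119 cultures and 10.62 in Py117 cultures, so in Py8119 cells Epcam lay under the background guide and Cdh1 close to it, while Krt8 was measured in both (9.81 and 10.76). In the tumours, host cells contribute RNA, and fewer cells of a type and less RNA per cell cannot be told apart. The mean level of 6 macrophage markers lay between 10.27 and 10.75 in Py8119 tumours, between 9.49 and 9.97 in Py117 tumours, and between 5.56 and 5.81 over all cultures.

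To show the letters to which HIF dimers can bind, RefSeq promoters of GRCm38.p6 were read for 33 of the 36 listed genes, from 250 bases before to 50 bases after the first listed start. Slc2a3, Ndrg1 and Epas1 were not matched. The motif ACGTG, searched on both strands, occurred in 19 of the 33 promoters (57.6%) and in 5315 of 27025 promoters of the same length (19.7%). For GCGTG the counts were 18 of 33 (54.5%) and 8772 of 27025 (32.5%). Known HIF targets were put on the list as such, so a higher share among them is not a result of these data. The 33 include Gpi1, Eno1, Aldoa and Ankrd37, which are not among the 32 members measured. The letters CACGTG hold ACGTG on both strands and count as 2 occurrences, and the motifs may overlap. The promoters below belong to the 4 members whose line difference depended most on the setting and, for comparison, to Ldha, which holds 5 occurrences of ACGTG. They lie at chr4:43506776-43507075 on the plus strand (Car9), chr12:54203825-54204124 on the minus strand (Egln3), chr11:78322823-78323122 on the plus strand (Aldoc), chr9:66713436-66713735 on the plus strand (Car12) and chr7:46845554-46845853 on the plus strand (Ldha). Capitals mark both motifs and their reverse complements. A match describes letters in the window and is not a measured binding site.
Car9: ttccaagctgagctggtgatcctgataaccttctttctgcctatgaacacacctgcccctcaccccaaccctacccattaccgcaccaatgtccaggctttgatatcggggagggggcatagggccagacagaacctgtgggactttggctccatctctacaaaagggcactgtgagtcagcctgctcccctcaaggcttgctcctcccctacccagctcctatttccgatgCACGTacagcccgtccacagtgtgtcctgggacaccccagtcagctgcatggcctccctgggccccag
Egln3: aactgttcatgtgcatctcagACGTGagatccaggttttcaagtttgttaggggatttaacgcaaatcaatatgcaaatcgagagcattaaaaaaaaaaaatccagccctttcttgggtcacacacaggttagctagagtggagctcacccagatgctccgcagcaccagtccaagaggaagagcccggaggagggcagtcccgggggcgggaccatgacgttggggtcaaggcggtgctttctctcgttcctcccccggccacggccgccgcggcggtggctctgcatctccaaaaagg
Aldoc: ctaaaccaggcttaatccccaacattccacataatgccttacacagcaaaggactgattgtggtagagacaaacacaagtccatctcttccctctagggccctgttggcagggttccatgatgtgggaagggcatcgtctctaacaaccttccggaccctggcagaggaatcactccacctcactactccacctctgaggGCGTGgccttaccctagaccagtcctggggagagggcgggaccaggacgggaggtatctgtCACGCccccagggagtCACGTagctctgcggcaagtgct
Car12: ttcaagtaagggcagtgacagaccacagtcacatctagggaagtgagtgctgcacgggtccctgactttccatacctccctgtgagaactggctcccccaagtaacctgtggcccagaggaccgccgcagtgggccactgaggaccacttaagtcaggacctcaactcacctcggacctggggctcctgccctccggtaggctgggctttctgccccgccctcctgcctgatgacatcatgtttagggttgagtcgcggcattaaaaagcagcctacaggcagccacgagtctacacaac
Ldha: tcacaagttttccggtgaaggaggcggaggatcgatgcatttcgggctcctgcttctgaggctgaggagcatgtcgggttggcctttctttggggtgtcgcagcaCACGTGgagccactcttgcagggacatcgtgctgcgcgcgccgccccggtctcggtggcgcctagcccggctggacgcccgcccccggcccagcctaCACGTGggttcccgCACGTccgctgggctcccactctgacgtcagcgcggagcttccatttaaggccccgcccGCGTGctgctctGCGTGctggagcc
The Car9 promoter holds 1 ACGTG at position -18 from the start, and Egln3 holds 1 at position -229 from the start. Aldoc holds 1 ACGTG and 2 GCGTG, and Car12 holds neither in this window.

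The cultures were compared to see how the lines differ without host tissue. Py8119 cells had more RNA for a muscle-type enolase and phosphofructokinase, Eno3 and Pfkm, for several HIF targets and, by the probe sets used, for both lactate transporters. They had less for the carbonic anhydrases Car9 and Car12, for the aldolase Aldoc and for Epas1, which encodes HIF-2 alpha. Of the 32 members, 11 were higher and 5 lower in Py8119 cultures, while 26.8% of all genes were called (14.5% higher and 12.3% lower). The members' median difference was 0.14, against -0.01 over all genes. The higher members were Hk2, Pfkm, Tpi1, Pgam1, Eno3, Slc16a1, Slc16a3, Egln3, Bnip3, Adm and P4ha1, and the lower ones Pfkp, Aldoc, Epas1, Car9 and Car12. The call of Slc16a1 was lost when any single array other than Py117 culture 2 was left out (adjusted p between 0.0705 and 0.137). Another probe set naming Slc16a3 among several symbols differed by -0.54, against 1.33 for the one used. The call of Pfkp was lost without Py117 culture 2 or Py8119 culture 2 (0.0509 to 0.0545).

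**Figure D1:**
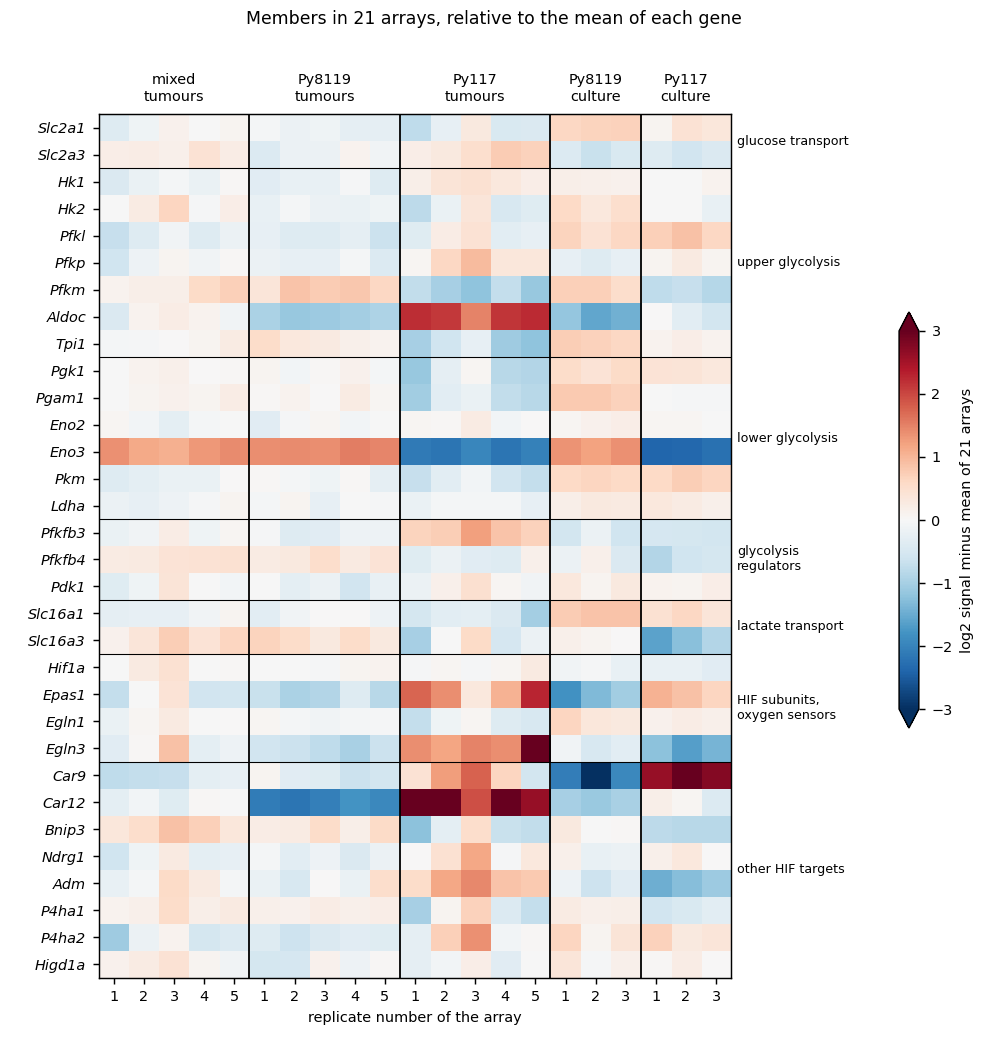
Each row is a member and each column an array, grouped as mixed, Py8119 and Py117 tumours, then Py8119 and Py117 cultures. Colour is the log2 signal minus the gene's mean over the 21 arrays, with values beyond 3 shown at the end colour. Eno3 is dark red in the Py8119 and mixed groups and dark blue in both Py117 groups, Car9 is darkest red in Py117 cultures, and Car12 is darkest red in Py117 tumours.

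Between the tumours of the lines the members went both ways. Lower glycolysis leaned to Py8119 tumours, with Pgk1, Pgam1, Eno3 and Pkm higher and none lower of 6 measured, whereas Car9, Car12, Ndrg1, Adm and P4ha2 of 8 listed HIF targets outside glycolysis were lower and Bnip3 higher, and 2 of 4 genes of HIF subunits and oxygen sensors were lower. Several enzymes of glycolysis are HIF targets as well, so these lists are not exclusive. In all, 10 members were higher and 12 lower in Py8119 tumours, with 37.4% of all genes called (21% higher and 16.5% lower). The median difference was -0.07 over the members and 0.01 over all genes. Pfkm, Tpi1, Pfkfb4, Slc16a1, Slc16a3 and Bnip3 were also higher. The lower members were Slc2a3, Hk1, Pfkp, Aldoc, Pfkfb3, Epas1, Egln3, Car9, Car12, Ndrg1, Adm and P4ha2. The call of P4ha2 was lost without Py117 tumour 2, Py117 tumour 3 or Py8119 tumour 2 (adjusted p between 0.0508 and 0.0589).

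Host-cell markers moved with the tumour groups. All 6 endothelial markers were lower in Py8119 tumours, where their mean level lay between 6.59 and 7.07, against 7.98 to 8.85 in Py117 tumours. For 5 T cell markers, all lower, the mean level lay between 5.63 and 5.99 in Py8119 tumours and between 6.54 and 8.14 in Py117 tumours. Of 5 fibroblast markers 4 were lower and 1 was higher, at 8.34 to 9.32 in Py8119 tumours against 9.59 to 10.28 in Py117 tumours. Macrophage markers were higher for 5 of 6, and proliferation genes for 3 of 4. Adipocyte markers were lower for 4 of 5, with mean levels of 5.44 to 6.37 in Py8119 tumours against 5.60 to 8.60 in Py117 tumours, 8.38, 7.39 and 8.60 of them in Py117 tumours 1, 4 and 5. The parts of these cells in the members' differences were not tested. Without those 3 tumours, which left Py117 tumours 2 and 3, 5 members were higher and 14 lower (21% of all genes higher and 15.9% lower). With the adipocyte mean as a covariate the counts were the same (20.4% of all genes higher and 15% lower). Pgk1, Pkm, Slc16a1, Slc16a3 and Bnip3 had differences between 0.12 and 0.25 without the tumours, with adjusted p from 0.233 to 0.458. In that fit Pfkl (-0.71) and Pdk1 (-0.57) were called lower, and the tumours left read highest of the Py117 group for both.

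**Figure D2:**
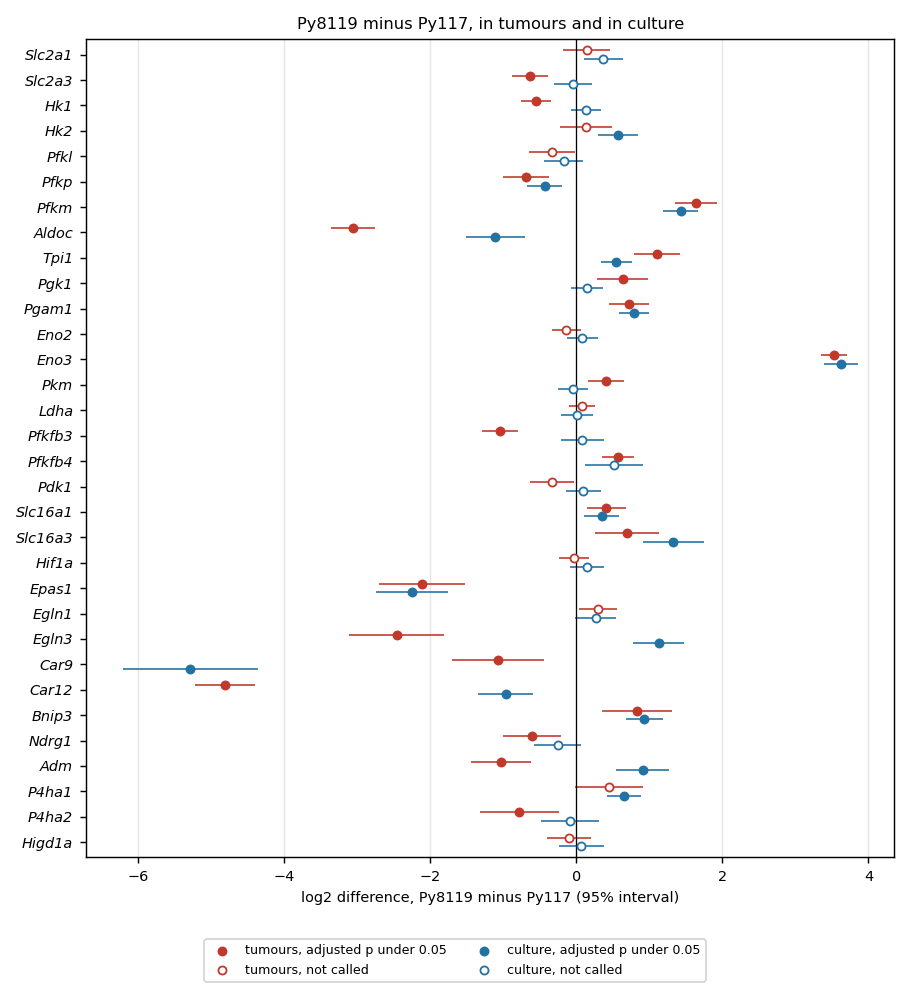
Points give the log2 difference, Py8119 minus Py117, for each member in tumours (red) and in culture (blue), and bars the 95% interval; filled points were called. Egln3 and Adm are filled on opposite sides of 0, Eno3 lies at 3.53 in tumours and 3.62 in culture, Car9 lies far left in culture (-5.29), and Car12 lies far left in tumours (-4.81).

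Of the 14 members called in both settings, 12 (85.7%) had the same sign in tumours and in culture, against 93.8% of the 4219 genes called in both. These were Pfkp, Pfkm, Aldoc, Tpi1, Pgam1, Eno3, Slc16a1, Slc16a3, Epas1, Car9, Car12 and Bnip3. Egln3 and Adm were higher in Py8119 cultures and lower in Py8119 tumours. The tests of these changes of difference are given with the interaction below. Neither comparison, in the main fits, called Slc2a1, Pfkl, Eno2, Ldha, Pdk1, Hif1a, Egln1 or Higd1a. Slc2a1 was called higher in Py8119 cultures with centred arrays, low genes left out, the mean of all probe sets or a trended prior, and without Py117 culture 2. Egln1 was called higher in Py8119 tumours with centred arrays or low genes left out, and without Py117 tumour 2 or 3.

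The mixed tumours were compared with each parental tumour to see where a tumour grown from both lines stands. Against Py117 tumours, 11 members were higher and 11 lower (36.1% of all genes called, 19.2% higher and 16.9% lower), and the median difference was 0.05, against -0.03 over all genes. Against Py8119 tumours, Aldoc and Car12 were higher and no member was lower (1.78% of all genes called, 1.61% higher and 0.162% lower), with a median of 0.06, against -0.03 over all genes. The members higher than in Py117 tumours were Hk2, Pfkm, Tpi1, Pgk1, Pgam1, Eno3, Pfkfb4, Slc16a1, Slc16a3, Egln1 and Bnip3. The lower ones were Hk1, Pfkp, Aldoc, Pfkfb3, Epas1, Egln3, Car9, Car12, Ndrg1, Adm and P4ha2. The comparisons share tumour arrays, so the overlap of their calls is not a result. Of the 22 members called between the parental tumours, 17 had a mixed mean between the parental means, and for 21 it lay nearer to Py8119 on the log2 scale, all but Slc2a3. Over all 8299 genes called between the parental tumours the shares were much the same, 74.6% between and 89.7% nearer to Py8119.

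Several calls against Py117 tumours were lost when any of several single arrays was left out, or without the adipocyte-rich tumours. Egln1 was lost without any of 7 arrays, namely Py117 tumours 1, 4 and 5 and mixed tumours 2 to 5 (adjusted p between 0.0517 and 0.0919). Hk2 was lost without Py117 tumour 1 or 4 or mixed tumour 3 (0.0619 to 0.0766), and Slc16a1 without Py117 tumour 5 or mixed tumour 4 or 5 (0.0574 to 0.0833, with a difference as low as 0.24). Ndrg1 was lost without Py117 tumour 3 or mixed tumour 1 or 4 (0.0518 to 0.0717, with a difference of -0.38 at the smallest), and P4ha2 without Py117 tumour 2 or 3 or mixed tumour 1 or 4 (0.0525 to 0.0793). Without Py117 tumours 1, 4 and 5 together, 5 members were higher and 12 lower (20.1% of all genes higher and 19.1% lower). Hk2, Pgk1, Slc16a1, Slc16a3, Egln1 and Bnip3 were then not called higher (adjusted p between 0.096 and 0.734), and Pfkl was lower (-0.68, adjusted p = 0.0028). In that same fit Slc2a3 (0.39, adjusted p = 0.0492) and Egln3 (0.75, adjusted p = 0.0471) were called higher in mixed than in Py8119 tumours.

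Tumours were compared with cultures within each line. Of 13 enzymes of upper and lower glycolysis, 8 were lower in Py8119 tumours and 6 in Py117 tumours, Aldoc was higher in both lines, and the others were not called. In Py8119 tumours 6 members were higher and 15 lower than in culture (37.1% of all genes called, 16.3% higher and 20.9% lower), with a median difference of -0.26, against -0.05 over all genes. In Py117 tumours 9 were higher and 10 lower (30.7% of all genes called, 12.4% higher and 18.3% lower), with a median of 0.09, against -0.09 over all genes. Without Py117 tumours 1, 4 and 5 the Py117 counts were 10 higher and 5 lower (10.6% of all genes higher and 16.4% lower). Among the lower members the calls of Slc2a1, Pfkl, Pgam1, Ldha and Egln1 were lost. Among the higher ones Pfkfb4 (adjusted p = 0.0831) and Hif1a (0.154) were lost. Pfkp (0.64, adjusted p = 0.0168), Bnip3 (0.93, adjusted p = 0.0179) and P4ha1 (0.83, adjusted p = 0.0156) were newly called higher. Py117 tumours 2 and 3, the only ones left in that fit, read highest of the group for each of these genes. Leaving out the others therefore raised the Py117 mean, and these new calls are not separate support. Lower in the tumours of both lines were 9 members, Slc2a1, Pfkl, Tpi1, Pgk1, Pgam1, Pkm, Ldha, Slc16a1 and Egln1, against 11% of all genes lower in both. Higher in both were 4, Slc2a3, Aldoc, Pfkfb4 and Slc16a3, against 8.05% of all genes. Egln3, Car9 and Car12 were called in both lines with opposite signs, against 1.19% of all genes. For Slc2a3 both Py8119 groups lay under the background guide, so no fold is given there. For Slc16a3, and for Hk1 in Py8119, the sign depends on the probe set, as given with their values.

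Cell type markers separated tumours from cultures as well. All 4 measured proliferation genes were lower in tumours, with mean levels of 9.53 to 9.77 in Py8119 tumours against 10.52 to 10.68 in Py8119 cultures, and of 8.69 to 9.36 in Py117 tumours against 10.13 to 10.25 in Py117 cultures. All 6 macrophage and all 6 endothelial markers were higher in the tumours of both lines, and fibroblast markers were higher for 4 of 5 in Py8119 and for 5 of 5 in Py117. Their part in the members' differences was not tested, and any batch between cultures and tumours cannot be told apart from the setting. Centring each array on its median moved the median difference of all genes to -0.26 in Py8119 and -0.25 in Py117, against -0.05 and -0.09 as deposited. On that scale Car9 alone remained called higher among the 6 members in Py8119 tumours (10.6% of all genes higher). The others had differences of 0.16 to 0.44. Newly called lower there were Eno2 (-0.42, adjusted p = 0.0115), Ndrg1 (-0.35, adjusted p = 0.0273), P4ha1 (-0.23, adjusted p = 0.0431) and Higd1a (-0.57, adjusted p = 0.0154).

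Some of these calls were lost when 1 array was left out. In Py8119 the count of higher members fell to 2 without culture 3 (14% of all genes higher), where Slc2a3, Aldoc, Pfkfb4 and Slc16a3 were lost. Singly, Slc2a3 was lost in 7 of 8 such fits (adjusted p between 0.0507 and 0.141, all but without Py8119 tumour 1) and Aldoc without Py8119 culture 2 or 3 (0.0665 to 0.0812). Pfkfb4 (0.0517) and Slc16a3 (0.0637) were lost without culture 3 only. Tpi1 (0.0597), Epas1 (0.0656) and Egln3 (0.078) were lost without Py8119 culture 1, and Ldha without culture 2, culture 3 or tumour 3 (0.0575 to 0.0816). In Py117 the count of lower members fell to 6 without culture 1 or without culture 2 (13.4% of all genes lower in each fit). Ldha (0.0651 to 0.0908) and Slc16a3 (0.075 to 0.109) were lost without either of these cultures, Slc2a1 in 7 of 8 fits (0.0648 to 0.161, all but without tumour 3), and Pgam1 (0.0504 to 0.0902) and Egln1 (0.0685 to 0.127) in 6, all but without tumour 2 or 3. Hif1a was lost in 6 (0.0611 to 0.148, all but without tumour 1 or 3), and Pfkfb4 in 5, without any culture or tumour 2 or 5 (0.0591 to 0.179).

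**Figure D3:**
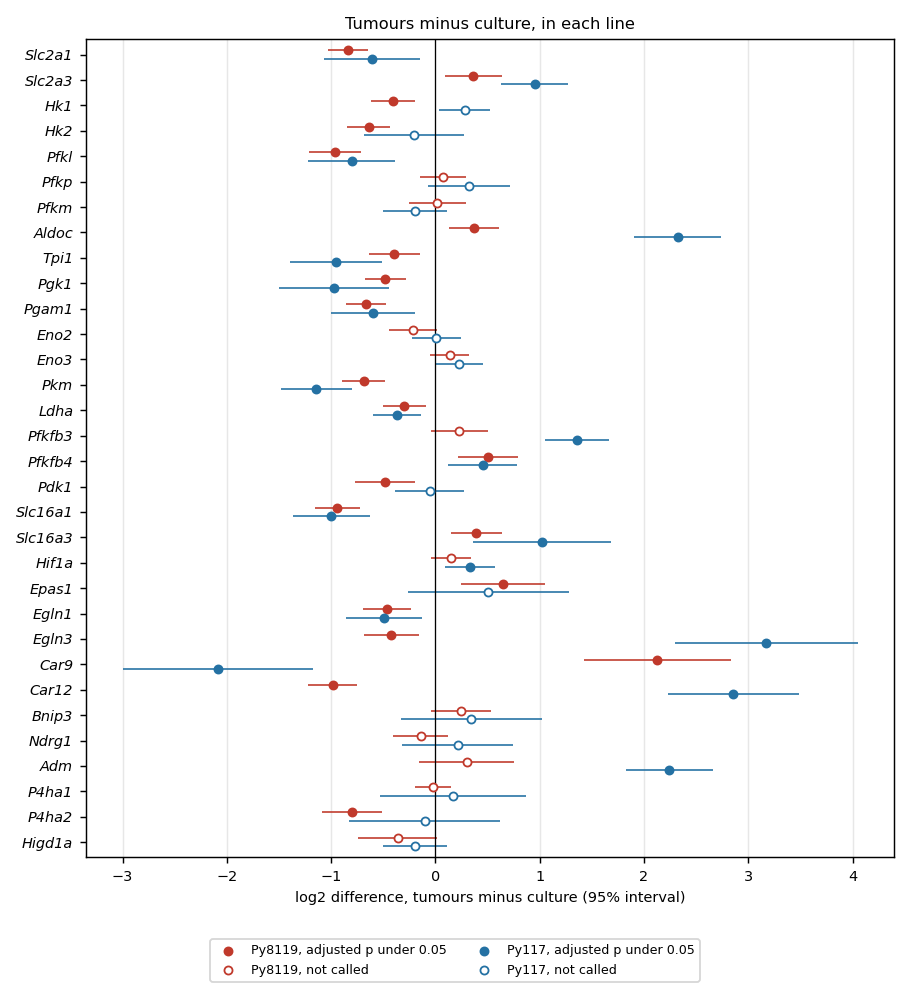
Points give the log2 difference, tumours minus culture, for each member in Py8119 (red) and in Py117 (blue), and bars the 95% interval; filled points were called. Of the 13 enzymes of upper and lower glycolysis 7 lie left of 0 in both lines, Car9 lies at 2.13 in Py8119 and at -2.09 in Py117, and the Py117 points of Egln3, Car12 and Adm lie far right, at 3.17, 2.86 and 2.24.

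Whether the tumour-minus-culture difference itself differed between the lines was tested as an interaction, Py8119 minus Py117, over the 16 arrays of the unmixed groups. Car9 was higher, and Hk1, Aldoc, Pfkfb3, Egln3, Car12 and Adm were lower (13.5% of all genes called, 7.5% higher and 5.99% lower). The median interaction was -0.19 over the members and 0.03 over all genes. The interaction was 4.22 ± 0.57 for Car9 (adjusted p = 7.17e-05), -3.84 ± 0.33 for Car12 (adjusted p = 6.11e-07) and -3.59 ± 0.46 for Egln3 (adjusted p = 3.67e-05). For Aldoc it was -1.95 ± 0.23, for Adm -1.94 ± 0.30, for Pfkfb3 -1.13 ± 0.19 and for Hk1 -0.68 ± 0.14. The sign for Hk1 and the size for Car9 depend on the probe set, as given with their values. All 7 calls held when any single array was left out. Without Py117 tumour 3, Tpi1 (0.70, adjusted p = 0.013), Pgk1 (0.66, adjusted p = 0.0368) and Pkm (0.55, adjusted p = 0.016) were called higher as well. Without Py117 tumours 1, 4 and 5, the lower members numbered 14 (5.31% of all genes lower). Hk2, Pfkp, Pgam1, Pdk1, Slc16a3, Ndrg1, P4ha1 and P4ha2 were added at interactions between -1.40 and -0.44. Py117 tumours 2 and 3, the only ones left, read highest of their group for each added member. Leaving out the others therefore raised the Py117 mean, and these added calls are not separate support.

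Glucose enters cells through facilitative transporters. Slc2a1, which encodes the basal transporter GLUT1, read 9.75, 9.99, 10.25, 10.11 and 10.21 in mixed tumours, 10.07, 9.95, 10.00, 9.86 and 9.85 in Py8119 tumours and 9.36, 9.89, 10.43, 9.66 and 9.70 in Py117 tumours. In culture it read 10.74, 10.79 and 10.82 in Py8119 cells and 10.22, 10.57 and 10.46 in Py117 cells. Py8119 minus Py117 was 0.37 in culture, without overlap, and 0.14 in tumours, neither called in the main fits. Every Py8119 tumour lay below every Py8119 culture, while Py117 tumour 3 reached the Py117 cultures. The difference from culture was -0.84 ± 0.09 in Py8119 (adjusted p = 3.96e-05) and -0.61 ± 0.21 in Py117 (adjusted p = 0.0466), the second at -0.26 (adjusted p = 0.38) without Py117 tumours 1, 4 and 5. Slc2a3, the high-affinity transporter GLUT3, was near background throughout, with group means of 5.36 in mixed, 4.97 in Py8119 and 5.60 in Py117 tumours, and of 4.60 and 4.65 in Py8119 and Py117 cultures. All Py8119 tumours lay below all Py117 tumours (-0.64 ± 0.12, adjusted p = 0.000253). Every Py8119 tumour was under the guide of 5.31, and set to it they were at least 1.23-fold lower.

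The upper part of glycolysis spends ATP to turn glucose into triose phosphates. The hexokinases trap glucose in the cell. Hk1, the constitutive form, read 7.69, 7.79, 7.80, 7.98 and 7.64 in Py8119 tumours against 8.20, 8.40, 8.49, 8.34 and 8.22 in Py117 tumours, without overlap (-0.55 ± 0.10, adjusted p = 0.000192). It averaged 8.18 ± 0.02 in Py8119 cultures and 8.05 ± 0.07 in Py117 cultures (SD, n = 3 each), which did not pass (adjusted p = 0.329). The inducible Hk2 read 8.51, 8.23 and 8.42 in Py8119 cultures and 7.89, 7.90 and 7.68 in Py117 cultures (0.57 ± 0.12, adjusted p = 0.0103). It ran from 7.69 to 7.86 in Py8119 tumours and from 7.12 to 8.28 in Py117 tumours, with overlap. A second Hk1 probe set that carries another symbol as well differed between the lines by -0.35 in culture and -0.02 in tumours. Between tumours and culture it differed by 0.44 in Py8119 and 0.10 in Py117, against -0.41 and 0.28 for the one used. The sign in Py8119 and the sign of the interaction thus depend on the probe set.

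Phosphofructokinase commits sugar to glycolysis, and its 3 subunit genes differed in direction between the lines. Pfkm, the muscle-type subunit, read 7.54, 7.59, 7.6, 7.99 and 8.14 in mixed tumours, 7.78, 8.27, 8.19, 8.24 and 8.04 in Py8119 tumours and 6.69, 6.42, 6.21, 6.70 and 6.30 in Py117 tumours. In culture it read 8.15, 8.15 and 7.96 in Py8119 cells and 6.66, 6.74 and 6.58 in Py117 cells. No Py117 array reached any Py8119 or mixed array. The difference was 1.64 ± 0.14 in tumours (adjusted p = 2.98e-08) and 1.43 ± 0.10 in culture (adjusted p = 7.88e-05). Pfkp, the platelet-type subunit, was lower in Py8119, by -0.69 ± 0.15 in tumours (adjusted p = 0.0011) and -0.44 ± 0.10 in culture (adjusted p = 0.0186). Pfkl, the liver-type subunit, differed by -0.34 and -0.17 and passed in neither. It was lower in tumours than in culture, by -0.96 ± 0.11 in Py8119 (adjusted p = 8.71e-05) and -0.80 ± 0.19 in Py117 (adjusted p = 0.0079), the second at -0.42 (adjusted p = 0.0661) without Py117 tumours 1, 4 and 5.

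Aldolases split fructose bisphosphate, and Aldoc is the form best known from brain. It read 7.85, 8.40, 8.51, 8.40 and 8.19 in mixed tumours, 7.34, 7.16, 7.20, 7.27 and 7.36 in Py8119 tumours and 10.51, 10.40, 9.78, 10.42 and 10.52 in Py117 tumours. In culture it read 7.12, 6.72 and 6.85 in Py8119 cells and 8.29, 7.98 and 7.74 in Py117 cells. The 3 tumour groups did not overlap, and the mixed tumours lay between the others. Py8119 was lower than Py117 by -3.06 ± 0.14 in tumours (adjusted p = 1.23e-11) and -1.11 ± 0.17 in culture (adjusted p = 0.0029), and mixed tumours exceeded Py8119 tumours by 1.00 ± 0.14 (adjusted p = 0.000375). Against culture, Aldoc was higher by 0.37 ± 0.11 in Py8119 tumours and by 2.32 ± 0.19 in Py117 tumours (adjusted p = 7.39e-06). Tpi1, which interconverts the triose phosphates, was higher in Py8119, by 1.10 ± 0.15 in tumours (adjusted p = 9.99e-06) and 0.54 ± 0.09 in culture (adjusted p = 0.0039). Without Py117 tumours 1, 4 and 5 the difference in tumours was 0.70. It was lower in tumours than in culture in both lines, with differences of -0.39 ± 0.11 in Py8119 and -0.95 ± 0.20 in Py117.

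The lower part of the pathway regains ATP and ends at pyruvate and lactate. Eno3, an enolase best known from muscle, showed one of the widest gaps between the lines. It read 10.09, 9.86, 9.79, 10.02 and 10.13 in mixed tumours, 10.12, 10.15, 10.11, 10.26 and 10.18 in Py8119 tumours and 6.61, 6.54, 6.76, 6.53 and 6.70 in Py117 tumours. The cultures read 10.06, 9.92 and 10.10 for Py8119 and 6.35, 6.37 and 6.48 for Py117. The mixed tumours and both Py8119 groups lay between 9.79 and 10.26, and no Py117 array exceeded 6.76. The difference was 3.53 ± 0.08 in tumours (11.6-fold higher, adjusted p = 2.7e-15) and 3.62 ± 0.10 in culture (12.3-fold higher, adjusted p = 2.06e-06), and Eno3 was not called between tumours and culture in either line. The 6 skeletal muscle markers, among them Ckm and Acta1, had mean levels of 5.18 to 5.43 in Py8119 tumours, 5.05 to 5.5 in Py117 tumours, 5.19 to 5.63 in Py8119 cultures and 5.48 to 5.59 in Py117 cultures, and none of them was called between the lines in tumours or in culture. Eno2, the neuronal enolase, stayed between 5.16 and 5.75 on all 21 arrays and was called in no comparison of the main fits. With centred arrays it was called lower in Py8119 tumours than in culture.

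Pgk1, which makes the first ATP of the lower part, read 11.54, 11.38, 11.51, 11.60 and 11.41 in Py8119 tumours against 10.33, 11.20, 11.52, 10.63 and 10.59 in Py117 tumours. The groups overlapped through Py117 tumour 3 (0.63 ± 0.17, adjusted p = 0.0049), and without Py117 tumours 1, 4 and 5 the difference was 0.12 (adjusted p = 0.411). Against culture, Pgk1 was lower by -0.48 ± 0.09 in Py8119 tumours and -0.97 ± 0.24 in Py117 tumours (adjusted p = 0.0018 and 0.0101). Pgam1, the phosphoglycerate mutase, was higher in Py8119 by 0.72 ± 0.13 in tumours (adjusted p = 0.0002) and 0.79 ± 0.09 in culture (adjusted p = 0.0006), without overlap in either setting, and by 0.35 in tumours without Py117 tumours 1, 4 and 5. A second Pgam1 probe set differed in the same direction, by 0.46 and 1.08. Pkm, the pyruvate kinase expressed by most tumours, differed by 0.41 ± 0.12 between Py8119 and Py117 tumours (adjusted p = 0.0107), which was 0.13 (adjusted p = 0.458) without Py117 tumours 1, 4 and 5, and by -0.05 in culture (adjusted p = 0.732).

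Pkm was lower in tumours than in culture in both lines, with no overlap. It read 12.31, 12.22, 12.15, 12.30 and 12.01 in Py8119 tumours against 12.87, 12.91 and 12.87 in Py8119 cultures (-0.69 ± 0.09, adjusted p = 0.000233). Py117 tumours read 11.57, 11.96, 12.18, 11.69 and 11.56 against 12.88, 13.00 and 12.91 in Py117 cultures (-1.14 ± 0.15, adjusted p = 0.000238). Ldha, which reduces pyruvate to lactate and whose promoter carries the most ACGTG letters of those printed above, varied little. Its group means were 7.77 in mixed, 7.82 in Py8119 and 7.75 in Py117 tumours, and 8.12 in both cultures. The line difference was 0.08 in tumours (95% interval -0.11 to 0.26) and 0.00 in culture (-0.22 to 0.22). Against culture Ldha was lower by -0.30 ± 0.09 in Py8119 tumours (adjusted p = 0.0286) and -0.37 ± 0.10 in Py117 tumours (adjusted p = 0.0197).

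The regulatory enzymes followed different courses. Pfkfb3, a bifunctional enzyme that makes the activator of phosphofructokinase, read 6.36, 6.45, 6.78, 6.43 and 6.63 in mixed tumours, 6.52, 6.17, 6.23, 6.42 and 6.41 in Py8119 tumours and 7.23, 7.31, 7.79, 7.41 and 7.25 in Py117 tumours. In culture it ran from 5.97 to 6.38 in Py8119 cells and from 6.01 to 6.06 in Py117 cells. Py117 tumours stood above all other arrays, with -1.05 ± 0.12 for Py8119 minus Py117 tumours (adjusted p = 9.56e-07). The difference from culture was 0.23 ± 0.12 in Py8119 tumours (adjusted p = 0.175) and 1.36 ± 0.14 in Py117 tumours (adjusted p = 3.86e-05). Its relative Pfkfb4 went the other way between the tumours, 6.83 to 7.10 in Py8119 against 6.19 to 6.73 in Py117 tumours (0.57 ± 0.10, adjusted p = 0.000198). Pdk1, a kinase that inhibits pyruvate dehydrogenase, was called in the main fits only in Py8119 tumours against culture (-0.48 ± 0.13, adjusted p = 0.0137). With the adipocyte covariate it was also called lower in Py8119 than in Py117 tumours (-0.60, adjusted p = 0.0033).

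Lactate leaves cells through monocarboxylate transporters. Slc16a1, which encodes MCT1, read 9.49, 9.69, 9.80, 9.82 and 9.64 in Py8119 tumours against 10.57, 10.65 and 10.66 in Py8119 cultures (-0.94 ± 0.10, adjusted p = 4.39e-05). It read 9.27, 9.48, 9.50, 9.36 and 8.78 in Py117 tumours against 10.25, 10.42 and 10.16 in Py117 cultures (-1.0 ± 0.17, adjusted p = 0.000956). No tumour reached a culture of its line. Slc16a3, the hypoxia-responsive MCT4, read, by the probe set used, 7.72, 7.61, 7.34, 7.59 and 7.34 in Py8119 tumours against 7.20, 7.12 and 7.07 in Py8119 cultures, and 6.05, 7.03, 7.62, 6.54 and 6.87 in Py117 tumours against 5.45, 5.79 and 6.16 in Py117 cultures. By this probe set tumours exceeded culture by 0.39 ± 0.11 in Py8119 (adjusted p = 0.0181) and 1.02 ± 0.30 in Py117 (adjusted p = 0.0239). The line difference was 0.70 ± 0.21 in tumours (adjusted p = 0.0123), but 0.20 (adjusted p = 0.435) without Py117 tumours 1, 4 and 5, and 1.33 ± 0.18 in culture (adjusted p = 0.0015). All these signs depend on the probe set. Another one that carries several symbols differed between the lines by -0.49 in tumours and -0.54 in culture, and between tumours and culture by -0.17 in Py8119 and -0.23 in Py117. Which of them measures Slc16a3 was not settled.

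Of the HIF alpha subunits, Epas1 RNA was called between the lines and Hif1a RNA was not. Hif1a, which encodes HIF-1 alpha and is controlled mainly at the protein level, ran from 8.90 to 9.71 on all arrays, with a line difference of -0.04 in tumours (95% interval -0.24 to 0.17) and 0.15 in culture (-0.08 to 0.38). Against culture it was higher in Py117 tumours (0.33 ± 0.11, adjusted p = 0.039), a call lost in 6 of 8 fits without 1 array, and differed by 0.15 ± 0.09 in Py8119 tumours (adjusted p = 0.212). Epas1 read 6.33, 7.02, 7.45, 6.46 and 6.49 in mixed tumours, 6.36, 6.08, 6.15, 6.64 and 6.20 in Py8119 tumours and 8.79, 8.42, 7.36, 8.09 and 9.31 in Py117 tumours. The cultures read 5.22, 5.70 and 6.00 for Py8119 and 8.08, 7.92 and 7.68 for Py117. Py8119 lay below Py117 on every array of either setting, by -2.11 ± 0.28 in tumours (adjusted p = 8e-06) and -2.25 ± 0.21 in culture (adjusted p = 0.000275). Endothelial cells also express Epas1, and their 6 markers were lower in Py8119 than in Py117 tumours, with a mean level of 5.02 to 5.32 in Py8119 cultures and 5.24 to 5.38 in Py117 cultures. Their part in the Epas1 difference between tumours was not tested.

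The prolyl hydroxylases Egln1 and Egln3, which are oxygen sensors, were not alike. Egln1 (PHD2) was lower in tumours than in culture, by -0.47 ± 0.10 in Py8119 (adjusted p = 0.0047) and -0.50 ± 0.16 in Py117 (adjusted p = 0.0415). It was not called between the lines in the main fits. Egln3 (PHD3), which HIF itself induces, read 8.80, 9.18, 10.02, 8.84 and 9.0 in mixed tumours, 8.57, 8.49, 8.37, 8.18 and 8.49 in Py8119 tumours and 10.54, 10.32, 10.63, 10.53 and 12.38 in Py117 tumours. In culture it read 9.04, 8.66 and 8.83 in Py8119 cells and 7.91, 7.48 and 7.75 in Py117 cells. The order of the lines turned over between the settings, without overlap in either. Py8119 was lower in tumours (-2.46 ± 0.31, adjusted p = 4.01e-06) and higher in culture (1.13 ± 0.15, adjusted p = 0.0014). Without Py117 tumour 5, the highest array, the difference in tumours was -2.09.

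**Figure D4:**
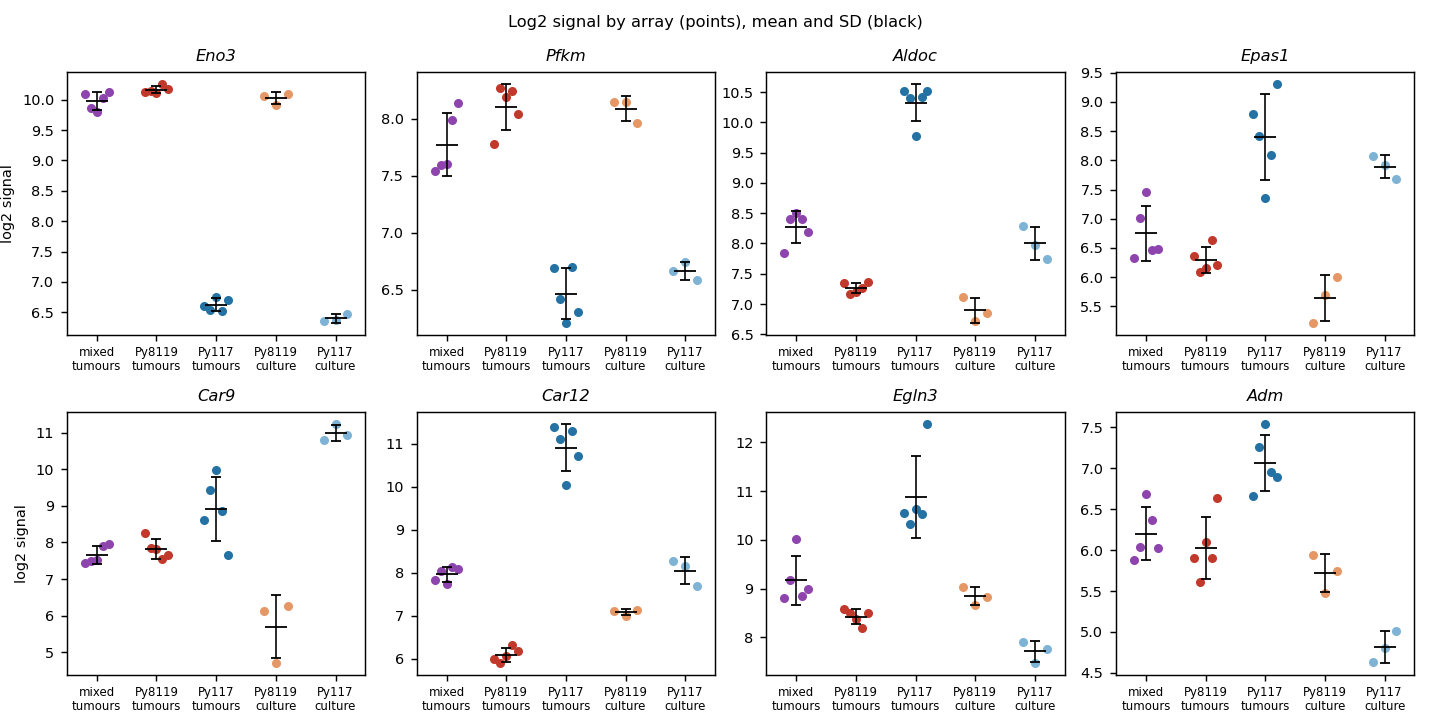
Points are log2 signals of single arrays for 8 members in the 5 groups, and the black bars give the mean and SD of each group (n = 5 tumours or 3 cultures). Eno3 and Pfkm separate Py117 from the other groups, Aldoc, Car12 and Egln3 are highest in Py117 tumours, and Car9 is highest in Py117 cultures. The vertical axes differ between genes and do not start at 0.

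Carbonic anhydrases at the cell surface handle the acid that glycolysis produces. Car9, a widely used hypoxia marker, read 6.12, 4.72 and 6.27 in Py8119 cultures against 10.80, 11.24 and 10.94 in Py117 cultures, the highest of any group. The difference was -5.29 ± 0.39 (39.1-fold lower in Py8119, adjusted p = 9.91e-05), and 1 Py8119 culture lay under the background guide of 5.31. In tumours Car9 read 8.27, 7.86, 7.83, 7.55 and 7.65 for Py8119 against 8.62, 9.44, 9.97, 8.85 and 7.65 for Py117, with overlap at Py117 tumour 5 (-1.07 ± 0.30, adjusted p = 0.0073). The difference was -1.88 without Py117 tumours 1, 4 and 5, and -1.83 with the adipocyte covariate. It was 2.13 ± 0.32 higher in tumours than in culture in Py8119 (adjusted p = 0.000444) and 2.09 lower in Py117 (difference -2.09 ± 0.41, adjusted p = 0.0028). A second Car9 probe set differed between the lines in the same direction, by -1.37 in culture and -0.28 in tumours. Between tumours and culture it differed by 0.34 in Py8119 and -0.75 in Py117. The signs were thus the same and the sizes smaller. Mixed tumours, at 7.44, 7.49, 7.51, 7.91 and 7.96, lay within the range of Py8119 tumours or just below it (-0.17, 95% interval -0.80 to 0.46).

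Car12, a related surface enzyme, showed the reverse course in Py117. It read 7.82, 8.03, 7.73, 8.13 and 8.09 in mixed tumours, 6.00, 5.91, 6.06, 6.32 and 6.18 in Py8119 tumours and 11.39, 11.11, 10.03, 11.28 and 10.72 in Py117 tumours. In culture it read 7.11, 7.0 and 7.13 in Py8119 cells and 8.28, 8.16 and 7.70 in Py117 cells. The tumour groups were apart, with the mixed tumours between the parental ones. Py8119 tumours were 28.1-fold lower than Py117 tumours (-4.81 ± 0.19, adjusted p = 2.14e-12), against a difference of -0.97 ± 0.16 in culture (adjusted p = 0.0038). Mixed tumours exceeded Py8119 tumours by 1.87 ± 0.19 (adjusted p = 1.32e-05) and stood 2.95 below Py117 tumours (difference -2.95 ± 0.19, adjusted p = 2.91e-09). Against culture Car12 was lower in Py8119 tumours (-0.99 ± 0.11, adjusted p = 5.72e-05) and higher in Py117 tumours (2.86 ± 0.28, adjusted p = 3.1e-05).

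Adm, which encodes the vasodilator peptide adrenomedullin, also changed sides. It read 5.94, 5.48 and 5.75 in Py8119 cultures against 4.63, 4.81 and 5.01 in Py117 cultures, all of the second set under the background guide (0.91 ± 0.15, adjusted p = 0.0046). In tumours it read 5.90, 5.61, 6.10, 5.90 and 6.63 for Py8119 against 6.66, 7.26, 7.54, 6.95 and 6.89 for Py117 (-1.04 ± 0.19, adjusted p = 0.000279). The groups touched without overlapping. The difference from culture was 0.30 ± 0.20 in Py8119 tumours (adjusted p = 0.285) and 2.24 ± 0.19 in Py117 tumours (adjusted p = 9.64e-06). With the Py117 cultures set to the guide, Adm was at least 3.38-fold higher in Py117 tumours than in culture, and at least 1.34-fold higher in Py8119 than in Py117 cultures. The size of its interaction is therefore not fixed by these values.

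Bnip3, a mitophagy receptor, was higher in Py8119, reading 7.93, 7.63 and 7.66 in Py8119 cultures against 6.84, 6.81 and 6.79 in Py117 cultures (0.93 ± 0.11, adjusted p = 0.000829). In tumours it read 7.86, 7.87, 8.19, 7.80 and 8.21 for Py8119 against 6.41, 7.33, 8.15, 6.97 and 6.90 for Py117. Only Py117 tumour 3 reached the Py8119 range (0.83 ± 0.23, adjusted p = 0.0065), and the difference was 0.25 (adjusted p = 0.378) without Py117 tumours 1, 4 and 5. The collagen prolyl hydroxylases P4ha1 and P4ha2 went different ways. P4ha1 was higher in Py8119 cultures (0.65 ± 0.10, adjusted p = 0.0028) and not called in tumours (0.45 ± 0.22, adjusted p = 0.128). P4ha2 was lower in Py8119 tumours, at 5.97 to 6.25 against 6.32 to 7.97 in Py117 tumours (-0.78 ± 0.26, adjusted p = 0.0217), and -1.48 without Py117 tumours 1, 4 and 5. Ndrg1, a stress-responsive gene, ran from 8.28 to 8.64 in Py8119 tumours and from 8.66 to 9.86 in Py117 tumours (-0.61 ± 0.19, adjusted p = 0.0165; -1.03 without Py117 tumours 1, 4 and 5), a call that the mean of all its probe sets did not give (adjusted p = 0.0516). Higd1a, a mitochondrial protein of the hypoxia response, was called in no comparison of the main fits, with group means between 5.94 and 6.30. With centred arrays it was called lower in Py8119 tumours than in culture.

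The spread of the members was widest among Py117 tumours, a difference that was not tested. The median SD over the 32 members was 0.198 in mixed tumours, 0.139 in Py8119 tumours and 0.337 in Py117 tumours, against 0.151, 0.150 and 0.205 over all genes. Py117 tumour 3 was the highest of its group for 23 of the 32 members, against 31% of all genes, and tumour 1 was the lowest for 16, against 24.7% of all genes. P4ha1 read 8.55, 9.62, 10.23, 9.13 and 8.82 in Py117 tumours 1 to 5, and P4ha2 read 6.32, 7.32, 7.97, 6.51 and 6.63. Tumours 2 and 3, which were the highest for both, had the lowest adipocyte marker means of the group (5.60 and 5.75). Aldoc, Hif1a, Epas1, Car12 and Pfkm did not follow that order and were lowest in tumour 3. Among mixed tumours, tumour 3 was the highest for 19 members, against 20.1% of all genes, and tumour 1 the lowest for 25, against 22.7%. The labels give no batch for these tumours, and the part of adipose tissue in the pattern was not tested.

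**Figure D5:**
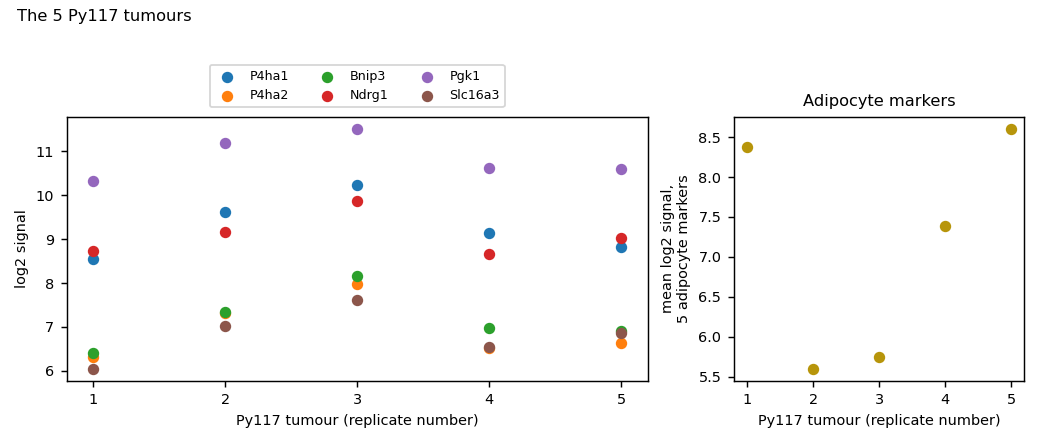
The left plot gives the log2 signal of 6 members in Py117 tumours 1 to 5, and the right one the mean log2 signal of 5 adipocyte markers in the same tumours. All 6 members are highest in tumour 3, and the adipocyte mean is lowest in tumours 2 and 3 (5.60 and 5.75) and highest in tumour 5 (8.60). The axes do not start at 0.

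Other genes of the same pathways were read from a list of 72, of which 64 were measured, 25 of glycolysis and pyruvate use and 39 of the HIF pathway. Between the tumours, 13 were higher and 25 lower in Py8119 (37.4% of all genes called, 21% higher and 16.5% lower). The median was -0.19, against 0.01 over all genes. The largest differences among those called were in Ppp1r3c, a glycogen-targeting subunit (-3.49 ± 0.28), Lox, which cross-links collagen (-2.85 ± 0.40), the fructose bisphosphatase Fbp2 (-2.50 ± 0.16) and the pyruvate carboxylase Pcx (-1.96 ± 0.16). In culture 15 were higher and 14 lower in Py8119 (26.8% of all genes called, 14.5% higher and 12.3% lower). At the ends were Pdgfb, a growth factor (-3.11 ± 0.14), the heme oxygenase Hmox1 (1.96 ± 0.12), the mTOR inhibitor Ddit4 (-1.82 ± 0.22) and Fbp2 (-1.71 ± 0.20). Mixed tumours had 9 higher and 23 lower than Py117 tumours (36.1% of all genes called, 19.2% higher and 16.9% lower). These were led by Lox (-2.65 ± 0.40) and Fbp2 (-1.86 ± 0.16), then Ppp1r3c (-1.84 ± 0.28) and Angptl4, an inhibitor of lipoprotein lipase (-1.34 ± 0.21). Against Py8119 tumours only Ppp1r3c was called (1.64 ± 0.28), with 1.78% of all genes called.

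Against culture, 12 of the 64 were higher and 16 lower in Py8119 tumours (37.1% of all genes called, 16.3% higher and 20.9% lower). In Py117 tumours 20 were higher and 11 lower (30.7% of all genes called, 12.4% higher and 18.3% lower). Lox was higher by 1.75 ± 0.40 in Py8119 tumours and by 4.20 ± 0.23 in Py117 tumours, and the chemokine receptor Cxcr4 by 1.82 ± 0.13 and 2.69 ± 0.28. Fibroblasts express Lox and leukocytes express Cxcr4, and markers of both were higher in tumours than in culture, as given above, with their part not tested. Py8119 tumours further had more of the monocarboxylate transporter Slc16a7 (1.95 ± 0.19) and less Pcx (-1.81 ± 0.10), and Py117 tumours more Angptl4 (2.31 ± 0.26) and Ppp1r3c (2.23 ± 0.36). The interaction called 4 higher and 8 lower (13.5% of all genes called, 7.5% higher and 5.99% lower). The largest were Ppp1r3c (-2.63 ± 0.45), Pdgfb (2.49 ± 0.17), Lox (-2.45 ± 0.50) and Pcx (-2.05 ± 0.27).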

How the data were processed

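RNA of 21 samples was measured on an Affymetrix whole-transcript array. The deposited values are log2 signals. RMA and limma are named in the submitters' processing notes, and versions and genome build are not given in the sources used here. Of 41345 probe sets, 23521 had 1 gene symbol, 1814 several and 16010 none. For each of 22180 genes the probe set with the highest mean was kept. Arrays carry no read depth, so their number limits the precision.

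The log2 values as deposited were fitted with limma 3.58.1 (R 4.3.3) in lmFit and eBayes, two-sided, with Benjamini-Hochberg adjustment over all genes and calls at 0.05. Labels call samples biological replicates without naming separate animals, so p-values measure the spread between these samples. The members and lists were chosen with earlier results of these data known. Every measured member is named, and for other pathway genes up to 4 called genes with the largest absolute difference in each comparison. Replicate numbers were not taken to pair samples, since no pair of groups had every correlation of same-numbered deviations over 0.1. The correlations lay between -0.23 and 0.26, and those of mixed with Py117 tumours were 0.16, 0.09, 0.26, 0.18 and -0.05 for numbers 1 to 5. On simulated data with 22180 genes, a log2 change of 1 was recovered for 71.6% of changed genes between cultures and 68.7% in the interaction. Between tumour groups the shares were 97% for Py8119 and Py117, 95.5% for mixed and Py117, and 97% for mixed and Py8119. Between tumours and culture they were 94% in Py8119 and 83.6% in Py117. A change of 0.5 was recovered for 0%, 16.4%, 59.7%, 59.7%, 50.7%, 28.4% and 22.4% in the same order. The simulation changed few genes and gave each gene the same spread in all groups, unlike these data, so the power here was not measured. Alternatives were quantile normalization, centring on the array median, a filter of genes under 6.00 and the mean of all single-symbol probe sets of a gene. Further ones were a trended robust prior, 1 fit of all arrays, a replicate block, a threshold of 0.01, an adipocyte covariate and leaving out each array. Leaving out Py117 tumours 1, 4 and 5 was added after seeing the data. It left only Py117 tumours 2 and 3. As background to counts of members, the same counts were made over all genes, after the data had been seen. Figures used matplotlib 3.10.9.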

Additional observations from a re-analysis of the deposited data

Results flagged for a closer look

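In 3 of 96 groups tested (32 members in 3 tumour groups) 1 array stood far from the other 4 of its group, by the gap to its nearest neighbour over the range of the group (Dixon's critical value 0.71), a measure that chance passes in about 1 in 20 groups, so that 3 are no more than chance gives. Slc2a3 read 5.56 in mixed tumour 4, against 5.28 to 5.34 in the others. Aldoc read 9.78 in Py117 tumour 3, against 10.4 to 10.52. Egln3 read 12.38 in Py117 tumour 5, against 10.32 to 10.63.

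For 7 members the tumour-minus-culture difference differed between the lines by the limma interaction test, given as Py8119 minus Py117 on the log2 scale. It was 4.22 for Car9, -3.84 for Car12, -3.59 for Egln3, -1.95 for Aldoc, -1.94 for Adm, -1.13 for Pfkfb3 and -0.68 for Hk1. All Py117 cultures lay under the background guide for Adm, so the size of its value is not fixed. The sign for Hk1 and the size for Car9 depend on the probe set.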

How the results depend on the processing

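Of 109 called member differences, none reversed in these settings, and 74 stayed called in every setting other than the 0.01 threshold. On leaving out at least 1 array 23 were lost, and in at least 1 other setting 33. The mean of all probe sets took only single-symbol ones, so it could not show the sign changes given above for Slc16a3 and Hk1. Of 294 counts of higher or lower members, 276 stayed within 1.5 times the reported one. The others follow, and their cause was not tested. In brackets is the share of all genes called in the same direction and setting. With the adipocyte covariate 5 members were higher in Py8119 than in Py117 tumours (20.4%), and 6 in mixed than in Py117 tumours (19.4%). Without Py117 tumours 1, 4 and 5 these counts were 5 (21%) and 5 (20.1%), and 4 members were higher in mixed than in Py8119 tumours (2.32%). In that setting 5 were lower in Py117 tumours than in culture (16.4%), and 14 were lower in the interaction (5.31%). At a threshold of 0.01, 7 were higher in mixed than in Py117 tumours (14.6%) and 5 lower in Py117 tumours than in culture (11.4%). At that threshold 1 was higher in Py8119 tumours than in culture (11.6%). That last count was 1 with centred arrays (10.6%) and 3 in 1 fit of all arrays (15.7%). A replicate block was also fitted, although the numbers were not taken to pair samples. With it 5 were lower in Py117 tumours than in culture (14.3%) and 2 higher in Py8119 tumours than in culture (12.2%), and 16 calls in all were lost. Leaving out each array in turn gave 10 to 12 higher and 4 to 5 lower in Py8119 cultures, 10 to 12 and 11 to 14 in Py8119 against Py117 tumours, 9 to 14 and 9 to 12 in mixed against Py117 tumours, and 2 to 3 and 0 in mixed against Py8119 tumours. It gave 2 to 6 higher and 13 to 15 lower in Py8119 tumours against culture, 6 to 10 and 6 to 10 in Py117 tumours against culture, and 1 to 4 and 6 to 7 in the interaction. Shares of all genes are not given beside these ranges, so they do not set the members apart from all genes. Centring moved the median of all genes to 0.14 in culture and 0.11 in Py8119 against Py117 tumours.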
